A study of Homo sapiens with 12 samples.

Results

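The 39 protein-coding HOX genes, chosen as the GENCODE genes whose symbol is HOXA, HOXB, HOXC or HOXD followed by a number, were examined in K562 cells that express EP400 with or without the region that binds TRRAP. They are 39 of 20033 protein-coding genes, and 130 of the 158028 listed H2A.Z and H2A.Zac regions overlapped one of them or the 2 kb on either side. The HOXA cluster held 11 genes and 19 regions, HOXB 10 genes and 60 regions, HOXC 9 genes and 32 regions, and HOXD 9 genes and 19 regions. On hg38 the clusters span chr7:27092993-27200091 (HOXA), chr17:48528526-48728750 (HOXB), chr12:53938831-54056030 (HOXC) and chr2:176092721-176190907 (HOXD).

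K562 is a human chronic myeloid leukemia line. In both lines, each 1 clone, the endogenous EP400 carries a degradation tag and was removed with 500 nM dTAGV-1 for 24 h, and EP400 was supplied from a transgene at the AAVS1 locus, either WT or Delta-TRRAP (ΔTRRAP). The 12 ChIP-seq libraries comprised 2 biological replicates each of input, H2A.Z and H2A.Zac in either line. The deposited lists come from 1 comparison of the lines per mark and hold regions higher in WT (called lost here), regions higher in ΔTRRAP (gained) and unchanged regions. They hold no value per replicate, so no spread between replicates and no test between the lines could be given, and the difference between the lines cannot be told apart from a difference between the clones. The only value of a region is the log10 likelihood ratio between the lines, which is at least 3 for a changed region and is not a fold change and also depends on sequencing depth. Library depth is unknown here.

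HOX genes encode homeodomain transcription factors that give cells their position along the body axis, and several of them, such as HOXA9 and HOXB4, act in blood stem cells and leukemia. Each cluster is ordered by paralog group, from group 1 at the end that is used anteriorly to group 13 at the end that is used posteriorly. Trithorax and MLL complexes keep HOX genes active and Polycomb complexes keep them silent. H2A.Z is a histone H2A variant found around active and poised promoters, EP400 helps to place it in chromatin, and the TIP60 acetyltransferase complex, of which EP400 and TRRAP are subunits, acetylates it.

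The middle 300 bases of 3 strongly changed regions, and the 250 bases before the start of HOXD13, are shown: the first 3 come from the only lost H2A.Zac region of HOXA, from a gained H2A.Zac region inside HOXA3 and from the changed region with the highest ratio at the HOXC genes, and the last shows a start with gained acetylation, whose region begins inside these letters. Letters are from hg38, plus strand, and the HOXD13 promoter is from the RefSeq table (GRCh38.p14). Capitals mark CG dinucleotides. The HOXA3 window overlaps an exon of the antisense HOXA-AS2, and GENCODE lists no exon in the others.
HOXA9 side, H2A.Zac lost, chr7:27160736-27161035: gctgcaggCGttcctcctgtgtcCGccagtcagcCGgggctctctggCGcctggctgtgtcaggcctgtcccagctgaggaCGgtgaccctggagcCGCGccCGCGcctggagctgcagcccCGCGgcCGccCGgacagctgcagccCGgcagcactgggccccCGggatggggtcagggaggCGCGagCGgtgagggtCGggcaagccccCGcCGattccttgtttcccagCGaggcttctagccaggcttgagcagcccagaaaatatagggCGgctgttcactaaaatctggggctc
HOXA3 intron, H2A.Zac gained, chr7:27115407-27115706: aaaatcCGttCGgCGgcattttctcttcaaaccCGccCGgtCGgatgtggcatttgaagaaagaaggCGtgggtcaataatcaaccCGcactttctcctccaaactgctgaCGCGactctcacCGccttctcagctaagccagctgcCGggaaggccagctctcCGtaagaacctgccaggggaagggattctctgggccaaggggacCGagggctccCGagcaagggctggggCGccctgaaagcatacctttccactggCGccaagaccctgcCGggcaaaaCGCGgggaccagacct
HOXC11 side, H2A.Zac gained, chr12:53978316-53978615: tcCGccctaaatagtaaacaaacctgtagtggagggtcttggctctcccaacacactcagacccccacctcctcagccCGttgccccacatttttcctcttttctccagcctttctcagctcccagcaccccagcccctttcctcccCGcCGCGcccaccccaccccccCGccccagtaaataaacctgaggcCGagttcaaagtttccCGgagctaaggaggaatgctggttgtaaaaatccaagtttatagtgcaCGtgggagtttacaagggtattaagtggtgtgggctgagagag
HOXD13 promoter, H2A.Zac gained, chr2:176092471-176092720: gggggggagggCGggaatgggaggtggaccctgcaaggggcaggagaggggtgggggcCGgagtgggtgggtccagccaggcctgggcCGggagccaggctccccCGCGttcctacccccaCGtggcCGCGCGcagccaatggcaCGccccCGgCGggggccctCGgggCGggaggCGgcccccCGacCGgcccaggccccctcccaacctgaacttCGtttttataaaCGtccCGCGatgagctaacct
The HOXD13 promoter was the richest of the 4 in G and C, at 74.0%, with 21 CG dinucleotides, against a median of 11 over the first 250 bases of 35116 RefSeq promoters. The HOXC11 window held 9 CG dinucleotides at 55.0% G and C. Both carried the E-box letters CACGTG, which 6.34% of those promoters and, in their middle 300 bp, 3.21% of all gained H2A.Zac regions hold. In the 4 printed windows no stretch of 22 letters occurred over 3 times in hg38.

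At the HOX genes, acetylated H2A.Z changed in more regions than H2A.Z did, as it did genome-wide. More of its changed regions were gained than lost in ΔTRRAP. The changed share of H2A.Zac regions was 54.8% (Wilson 95% interval 44.1 to 65.0%), beside 52.1% genome-wide. For H2A.Z it was 30.4% (19.1 to 44.8%), beside 34.0%, so both shares were close to the background. The 84 H2A.Zac regions divided into 30 gained, 16 lost and 38 unchanged ones. The whole H2A.Zac lists divided into 26.3% gained, 25.9% lost and 47.9% unchanged. The gained share of the changed HOX regions was 65.2% (Wilson 95% interval 50.8 to 77.3%, counting error only), and the genome-wide share was 50.4%. Neighboring regions are not independent, so the interval is too narrow. The lower bound is close to the genome-wide share, and without HOXA the share was 59.5% (43.5 to 73.7%), an interval that takes it in. Gained HOX regions were also wider, with a median of 1110 bp against 574.5 bp for lost ones (664 and 702 bp genome-wide). In base pairs the gained share was 77.7%, beside 50.6% genome-wide.

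The 46 regions of H2A.Z itself divided into 7 gained, 7 lost and 32 unchanged ones, and the whole H2A.Z lists into 14.1% gained, 19.8% lost and 66.0% unchanged. The gained share of changed regions was 50% (26.8 to 73.2%), beside 41.6% genome-wide. HOXB held 6 of the 7 lost regions, and without HOXB the share was 85.7%. Lost H2A.Z lay mostly beside the genes: 2 of the 7 lost regions and 4 of the 7 gained ones remained when the 2 kb flanks were left out.

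**Figure D1:**
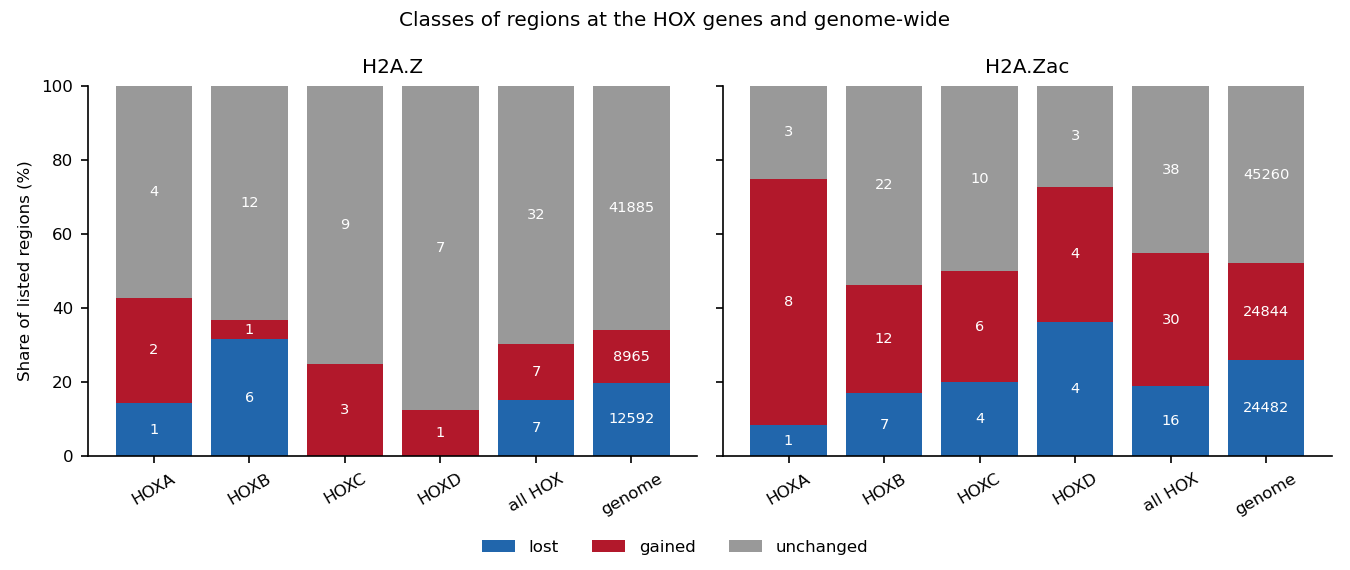
Stacked bars give the share (%) of listed regions that were lost (blue), gained (red) or unchanged (gray) in ΔTRRAP at the genes of each HOX cluster, at all HOX genes and genome-wide, with H2A.Z on the left, H2A.Zac on the right and the number of regions in the bars. HOXA has 8 gained and 1 lost H2A.Zac regions, and HOXB has 6 of the 7 lost H2A.Z regions.

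The clusters were then taken one by one. HOXA was nearly one-sided for H2A.Zac, with 8 regions gained, 1 lost and 3 unchanged, a gained share of 88.9% (56.5 to 98.0%). HOXB had 12 gained, 7 lost and 22 unchanged H2A.Zac regions (63.2% gained, 41.0 to 80.9%). HOXC had 6 gained, 4 lost and 10 unchanged (60.0%, 31.3 to 83.2%), and HOXD had 4 gained, 4 lost and 3 unchanged (50%, 21.5 to 78.5%). The intervals of the 4 clusters overlap. H2A.Z in HOXA was gained in 2 regions, lost in 1 and unchanged in 4. In HOXB the counts were 1, 6 and 12, in HOXC 3, 0 and 9, and in HOXD 1, 0 and 7.

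HOXB had the highest share of its gene windows covered by regions, and for H2A.Zac the gap to the other clusters was wide. H2A.Zac regions took up 38.6% of the HOXB gene windows, 13.7% of those of HOXC, 8.92% of those of HOXA and 7.55% of those of HOXD. For H2A.Z the shares were 11.7% in HOXB, 8.81% in HOXC, 6.05% in HOXD and 3.49% in HOXA.

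**Figure D2:**
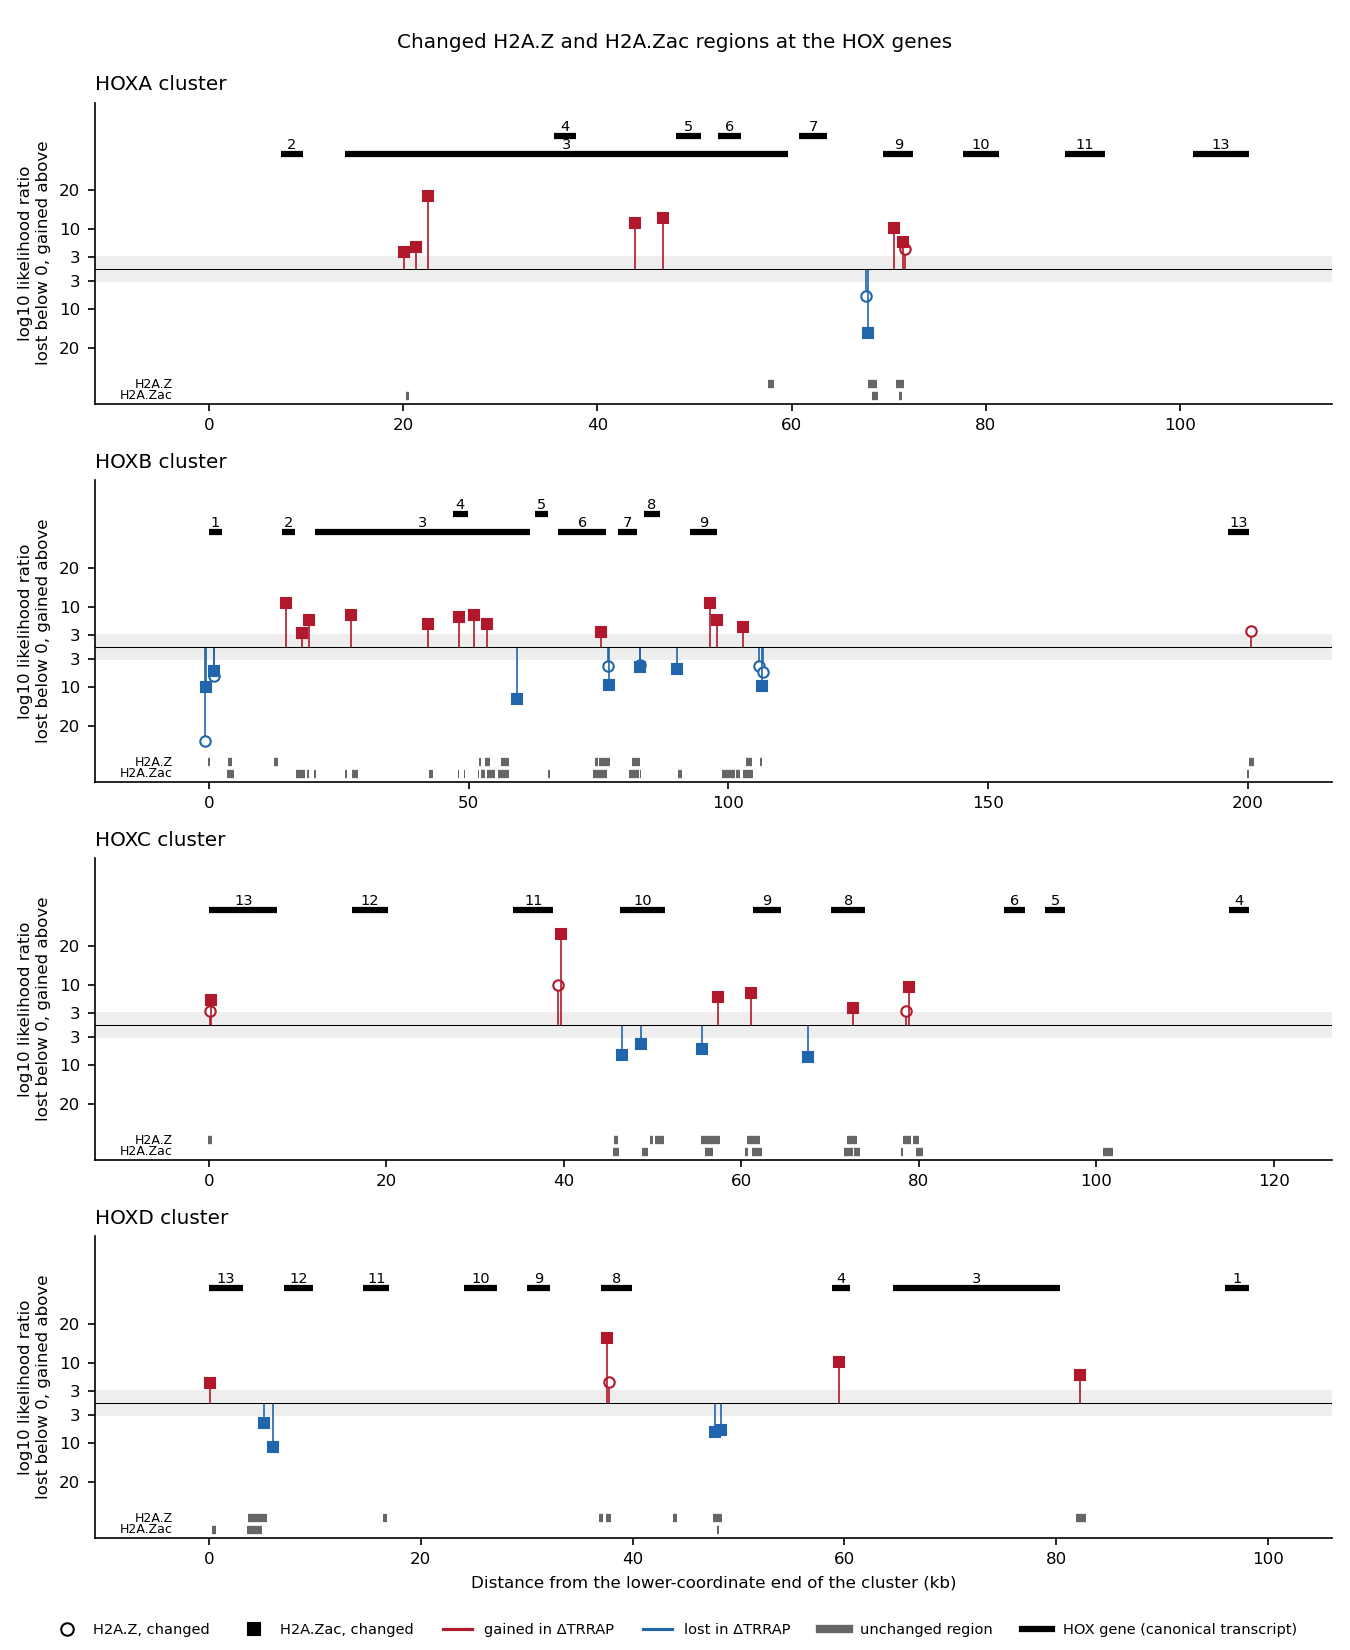
Each panel maps 1 HOX cluster by distance (kb) from its lower-coordinate end. Stems give the log10 likelihood ratio of each changed region, upwards for gained (red) and downwards for lost (blue), with open circles for H2A.Z and filled squares for H2A.Zac, numbered black bars give the HOX genes reported here, gray bars give unchanged regions, and the shaded band marks ratios under 3. Gains and losses of H2A.Zac both occur along HOXB, HOXC and HOXD, often in runs of one direction, and the genes from HOXA10 to HOXA13 have no region.

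HOXA3, a gene of neck and pharyngeal development, has a long annotated body that contains HOXA4, HOXA5 and HOXA6. Inside it, 5 H2A.Zac regions were gained, and they were intronic apart from 104 bp of exon in the one next to HOXA5. The highest had a ratio of 18.3, and its middle is printed above. The others had ratios of 12.9, 11.6, 5.65 and 4.24. None of the 5 shared 25% of its length with a listed H2A.Z region.

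HOXA9, a factor of hematopoietic progenitors that drives myeloid leukemia with MEIS1, had regions of both directions within 5 kb. Beyond its 3′ end, H2A.Zac was lost at a ratio of 16.2 (chr7:27160455-27161315) and H2A.Z at 6.81, the only lost regions of HOXA. Inside the gene, H2A.Zac was gained at ratios of 10.5 and 6.75, the latter 0.565 kb downstream of the transcription start site (TSS), together with H2A.Z at 4.95. No region was listed at HOXA2, HOXA4, HOXA7, HOXA10, HOXA11 or HOXA13.

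In HOXB the highest ratio belonged to a loss of H2A.Z. It lay past the 3′ end of HOXB1, a hindbrain regulator, with a ratio of 23.8, which placed it 30th among 12592 lost H2A.Z regions. H2A.Zac was lost over it at 10.1, and a second pair of lost regions followed inside HOXB1 with ratios of 7.29 (H2A.Z) and 6.10 (H2A.Zac). The first of these regions is partly repeated sequence: of the 279 stretches of 22 letters in its middle 300 bases, 24 occurred over 100 times in hg38. How reads from repeated sequence bear on the ratio was not tested.

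Other HOXB genes carried wide gains of H2A.Zac. HOXB2, another hindbrain regulator, had the widest changed HOX region, 4215 bp across its TSS with a ratio of 10.98, and gained regions at 6.88 and 3.48 farther upstream. Within the long HOXB3 annotation, which reaches around HOXB4, gained regions had ratios of 8.10, 5.92 and 5.70. At HOXB4, which supports expansion of blood stem cells, 3274 bp were gained across the TSS at 8.06 and 1941 bp downstream at 7.48. Around HOXB9 the gained H2A.Zac regions had ratios of 10.99 and 6.86, the second across the TSS, and another lay 4.40 kb upstream at 5.13. Of the 12 gained H2A.Zac regions of HOXB, 10 had no listed H2A.Z region over 25% of their length.

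The lost regions of HOXB lay between and beside these gains. An intronic H2A.Zac region of HOXB3 was lost at 13.0. Upstream of the canonical TSS of HOXB6, by 0.148 kb, H2A.Zac was lost at 9.63 with H2A.Z at 4.75, while a gained H2A.Zac region of 356 bp lay 0.887 kb downstream at 3.78. Upstream of HOXB7, by 0.246 kb, both marks were lost, at 5.11 for H2A.Zac and 4.61 for H2A.Z. Farther upstream in the HOXB7 window, H2A.Zac was lost at 9.77 over a pair of lost H2A.Z regions at 6.21 and 4.86, and at 5.63 between HOXB8 and HOXB9. HOXB13, a gene of the posterior body and prostate that lies apart from the others, had a gained H2A.Z region 0.181 kb upstream at 4.14 and no changed H2A.Zac. It was the only gained H2A.Z region at a HOX gene that touched no gained H2A.Zac region.

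In HOXC, H2A.Z regions were gained or unchanged and none was lost. The highest ratios of the cluster windows lay past the 3′ end of HOXC11, a gene of limb and kidney patterning, where H2A.Zac was gained at 23.0 (chr12:53977801-53979130) and H2A.Z at 10.03. At the TSS of HOXC13, a regulator of hair and nail keratins, both marks were gained, at 6.28 and 3.42. A region of 1543 bp inside the long HOXC4 and HOXC6 annotations gained H2A.Zac at 9.49. Within it, H2A.Z was gained over 294 bp at 3.61, and an unchanged H2A.Z region of 941 bp lay over the same bases. H2A.Zac was also gained across the TSS of HOXC9 at 7.98, 3.44 kb upstream of that TSS at 7.09, and at the 3′ part of HOXC8 at 4.19. Losses of H2A.Zac were placed between these, at 7.61 across the TSS of HOXC10, 4.89 inside HOXC10, 6.01 upstream of HOXC9 and 7.96 upstream of HOXC8. HOXC5 and HOXC12 had no listed region.

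In HOXD the highest ratio was at HOXD8, a gene active in limb and trunk, where H2A.Zac was gained at 16.4 from 0.016 kb downstream of the TSS on, and H2A.Z at 5.20. HOXD4 had a gained H2A.Zac region at 10.4, 0.040 kb downstream of its TSS. A region past HOXD3 was gained at 7.05, and one across the TSS of HOXD13, a regulator of digit formation, at 4.93. H2A.Zac was lost upstream of HOXD12, at 11.1 and 5.00. It was also lost inside the long HOXD3 annotation, upstream of the canonical HOXD3 transcript, at 7.32 and 6.69. HOXD1 and HOXD9 had no listed region, and HOXD10 and HOXD11 shared a single unchanged H2A.Z region.

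By gene, 29 of the 39 HOX genes had a listed region of either mark in the gene plus 2 kb, a share of 74.4% (58.9 to 85.4%) beside 80.8% of all protein-coding genes. A gained H2A.Zac region lay at 20 HOX genes (51.3%, 36.2 to 66.1%), against a background of 51.8%, and a lost one at 12, against 37.7%. For H2A.Z the counts were 8 genes with a gained region, against 22.2%, and 6 with a lost one, against 17.8%. These shares of genes are close to the backgrounds. Both directions of H2A.Zac occurred at 8 of the 39 genes, against 20.8%. The long annotations of HOXA3, HOXB3, HOXB7, HOXC4, HOXC6 and HOXD3 contain or reach neighboring genes, so a region can count for several genes, and HOX genes are shorter than most, with a median length of 4.22 kb against 27.5 kb.

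Within 1 kb of a TSS, a minority of HOX genes had listed H2A.Z. A region of any class was found at 15 of the 39 genes (38.5%, 24.9 to 54.1%), and the background of 67.0% lies above that interval. For H2A.Zac the number was 21 (53.8%, 38.6 to 68.4%), against 69.1%. Gained H2A.Zac lay at 15 genes, against 41.4%, and lost H2A.Zac at 7, against 22.3%. Gained H2A.Z lay at 6 genes, against 16.2%, and lost H2A.Z at 3, against 9.31%.

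Among the genes with gained H2A.Zac at a TSS were HOXA3, HOXA9, HOXB2, HOXB3, HOXB4, HOXB6, HOXB9, HOXC4, HOXC6, HOXC9, HOXC13, HOXD4, HOXD8 and HOXD13. Lost H2A.Zac was found at HOXB3, HOXB6, HOXB7, HOXC6, HOXC9, HOXC10 and HOXD12. Genes with gained H2A.Z included HOXA9, HOXB13, HOXC4, HOXC13 and HOXD8, and H2A.Z was lost at HOXB3, HOXB6 and HOXB7. With the canonical TSS of each gene alone, gained H2A.Zac remained at 11 genes, without HOXA3, HOXB3, HOXC4 and HOXC6, and lost H2A.Zac remained at 4 genes, HOXB6, HOXB7, HOXC10 and HOXD12.

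Paralogs, genes of the same group in different clusters, were set side by side by these TSS windows, beside the 41.4% of all protein-coding genes with gained H2A.Zac there. With 2 to 4 genes in a group, the counts are a description. In group 4, HOXB4, HOXC4 and HOXD4 had gained H2A.Zac, HOXC4 at another start than its canonical TSS, and HOXA4 had no region. In group 9, HOXA9, HOXB9 and HOXC9 had gained H2A.Zac, with a lost region at HOXC9 as well, and HOXD9 had none. In group 13, HOXB13 and HOXC13 had gained H2A.Z, HOXC13 and HOXD13 had gained H2A.Zac, and HOXA13 had neither. HOXA3 and HOXB3 of group 3, HOXB6 and HOXC6 of group 6, HOXB2 of group 2 and HOXD8 of group 8 had gained H2A.Zac, with a lost region as well at HOXB3, HOXB6 and HOXC6. No gene of group 5 had a changed region, groups 10 and 12 had lost H2A.Zac alone, at HOXC10 and HOXD12, and in group 7 both marks were lost at HOXB7. Group 11 had no region at any of its 3 TSS windows.

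**Figure D3:**
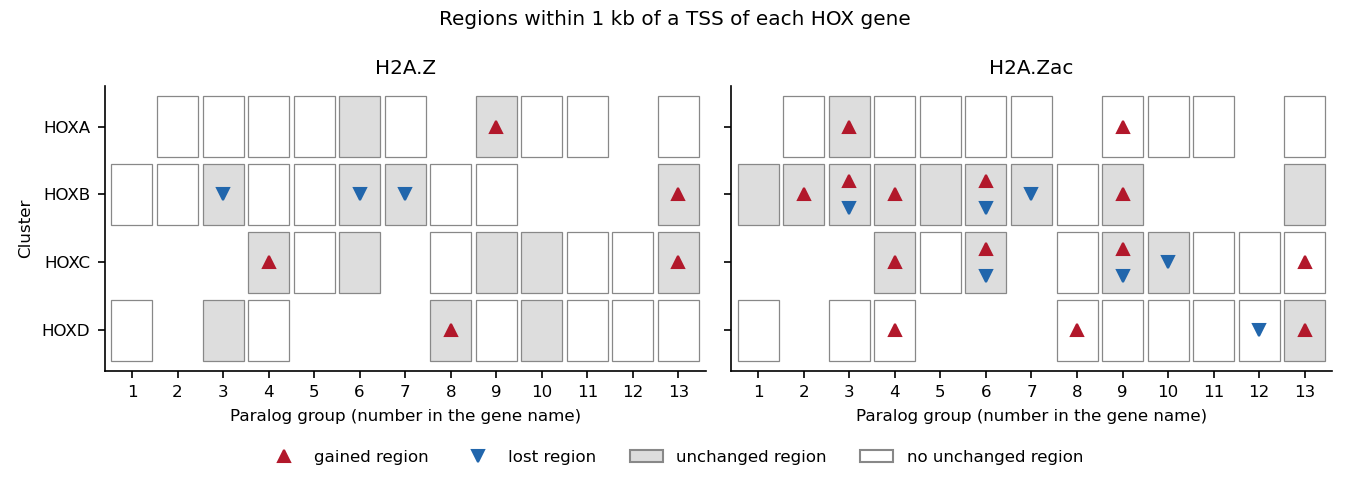
Each square is a HOX gene reported here, placed by paralog group (x axis) and cluster (y axis), with H2A.Z on the left and H2A.Zac on the right. Red and blue triangles mark a gained and a lost region within 1 kb of a TSS and gray squares mark an unchanged one, and gained H2A.Zac appears in 3 of the 4 clusters in groups 4 and 9, in group 4 in 2 of them with canonical TSSs alone.

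Changed regions of the 2 marks that touched each other had the same direction at the HOX genes, as nearly all did genome-wide, although a gene could hold separate regions of opposite direction. All 7 lost H2A.Z regions touched a lost H2A.Zac region, beside 67.1% genome-wide, and 6 of the 7 gained ones touched a gained H2A.Zac region, beside 67.5%. No HOX region was lost in one mark and gained in the other, and genome-wide 0.151% of lost H2A.Z regions touched a gained H2A.Zac region and 0.212% of gained ones a lost one. H2A.Z was then counted where it lay over at least 25% of the length of an H2A.Zac region. Of the 30 gained H2A.Zac regions, 5 (16.7%, genome-wide 18.7%) had gained H2A.Z and 10 (33.3%, genome-wide 45.9%) had unchanged H2A.Z. No H2A.Z class reached 25% at 18 (60.0%, genome-wide 43.1%). By cluster these 18 were 6 of 8 in HOXA, 10 of 12 in HOXB, 0 of 6 in HOXC and 2 of 4 in HOXD. Counting any shared base, 16 of the 30 (53.3%) had no listed H2A.Z, and the genome-wide share at that overlap was not computed. Of the 16 lost ones, 6 (37.5%, genome-wide 28.6%) had lost H2A.Z, 8 (50%, genome-wide 36.4%) had unchanged H2A.Z and 6 (37.5%, genome-wide 45.2%) had none. A region can meet several classes. Classes also adjoin within a mark: 22 of the 46 changed H2A.Zac regions and 8 of the 14 changed H2A.Z regions shared bases with an unchanged region of the same mark.

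The surroundings of the clusters were examined to see whether the direction was shared by the neighborhood. For H2A.Zac, 65.8% of the 38 changed regions in the 1 Mb on each side of HOXA were gained (49.9 to 78.8%), against 88.9% of 9 in the cluster (56.5 to 98.0%). In the nearest 250 kb on each side of HOXA, 9 of 10 were gained (90.0%, 59.6 to 98.2%), as high a share as in the cluster. For HOXB the flanks gave 62.1% of 87 and the cluster span 61.9% of 21. For HOXC they gave 49.0% of 96 and 66.7% of 12, and for HOXD 44.4% of 27 and 50% of 8. The sides of HOXD differed, with 10 of 14 gained on the lower-coordinate side (71.4%, 45.4 to 88.3%). On its other side 2 of 13 were gained (15.4%, 4.33 to 42.2%), and these 2 intervals do not overlap. This difference between the sides of HOXD depended on the flank length. With flanks of 2500 kb, 54.3% of 46 were gained on the lower-coordinate side and 57.8% of 64 on the other. With flanks of 250 kb the shares were 42.9% of 7 and 33.3% of 3. At both of these lengths the intervals of the sides overlap. With both sides pooled, the H2A.Zac intervals of cluster and flanks overlap in each of the 4 clusters.

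For H2A.Z the intervals of cluster and flanks, with both sides pooled, did not overlap in HOXC. All 6 changed regions in the whole HOXC span were gained (Wilson interval from 61.0% upwards), of which 3 lay at HOX genes and 3 between them, while 8 of 22 were gained in the flanks (36.4%, 19.7 to 57.0%) and 33.7% of 938 on chromosome 12. With 2.5 Mb on each side the flanks of HOXC gave 54.4% (41.6 to 66.6%), with 31 of 57 changed regions gained, and the intervals overlap. In HOXB, 1 of 7 was gained in the cluster (14.3%, 2.57 to 51.3%), an interval that takes in the 10 of 27 in the flanks (37.0%), the 34.7% of 832 on chromosome 17 and the 41.6% genome-wide. HOXA had 2 of 3 gained and 9 of 15 in its flanks, and HOXD 1 of 1 and 4 of 13.

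**Figure D4:**
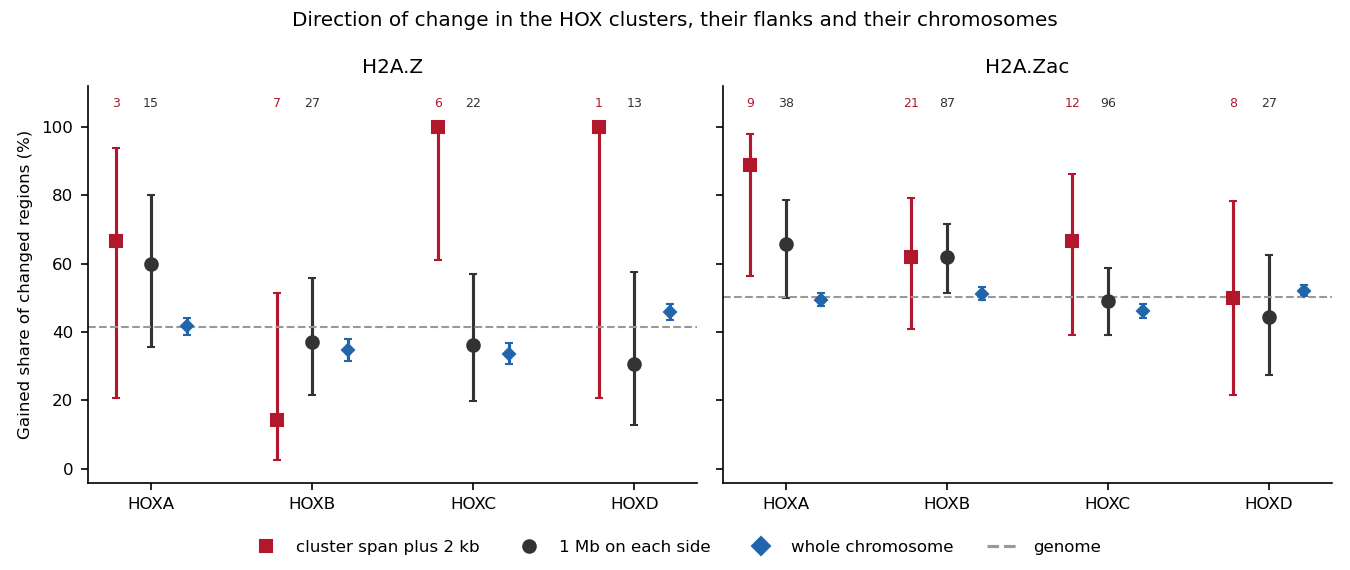
Points give the gained share (%) of changed regions in each cluster span plus 2 kb (red squares), in the 1 Mb on each side (black circles) and on the whole chromosome (blue diamonds), with Wilson 95% intervals, and the dashed line gives the genome. Numbers above the points count changed regions, and in HOXC all 6 changed H2A.Z regions are gained against 8 of 22 in the flanks.

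HOX genes were compared with 92 homeobox genes outside the clusters, which encode related developmental factors. Of these, 10 had a gained H2A.Zac region in the gene plus 2 kb (10.9%, 6.01 to 18.9%), compared with 20 of the 39 HOX genes (51.3%, 36.2 to 66.1%), and the intervals do not overlap. The share of all protein-coding genes was 51.8%, so the HOX genes were at the background and the other homeobox genes below it. Any listed H2A.Zac region was found at 42.4% of the 92 (32.8 to 52.6%) and at 66.7% of the HOX genes (51.0 to 79.4%). Lost H2A.Zac regions were found at 31 of the 92 (33.7%, 24.9 to 43.8%) and at 12 of the 39 HOX genes (30.8%, 18.6 to 46.4%). Within 1 kb of a TSS, 7 of the 92 had gained (7.61%) and 22 had lost H2A.Zac (23.9%), compared with 15 (38.5%) and 7 (17.9%) of the HOX genes and with 41.4% and 22.3% of all protein-coding genes, whose order the HOX genes shared. For H2A.Z in the gene plus 2 kb, gained regions were found at 7 of 92 (7.61%) and 8 of 39 (20.5%), against 22.2% of all protein-coding genes, and lost ones at 15 of 92 (16.3%) and 6 of 39 (15.4%), against 17.8%. Neighboring HOX genes share regions, so their counts are not independent and the HOX intervals are too narrow.

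The spans of the HOX clusters hold 61 other annotated genes, among them 28 long non-coding RNAs and 8 miRNAs. Within 1 kb of a TSS, 16 of the 61 had gained H2A.Zac and 2 had lost it, against 19.9% and 11.3% of the 62663 annotated genes of all types. For H2A.Z, 5 were gained and 0 lost, against 7.50% and 4.86%. Of the 28 long non-coding RNAs, 12 had gained H2A.Zac and 1 had lost it, against 16.3% and 9.20% of all 18866. A listed region of either mark and any class lay at 24 of the 61 and at 18 of the 28. The matching share over all genes of these types was not computed, so the gains were not set against how often such starts have a listed region. These genes share regions with each other and with HOX genes, so their counts are not independent. The 12 include HOXA-AS2, HOXA-AS3, HOXB-AS1, HOXB-AS2, HOXB-AS3, HOXC13-AS, HOTAIR, HOXC-AS1, HOXC-AS2 and 2 without a name. HOXC-AS3, which starts beside HOXC10, had lost H2A.Zac. Of the miRNAs, MIR10A beside HOXB4 and MIR196A1 upstream of HOXB9 had gained H2A.Zac. Several of these starts lie in regions already described for HOX genes.

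The HOX regions were rich in CG dinucleotides. Gained H2A.Z regions at HOX genes had a median G and C content of 66.5% and 7.16 CG per 100 bp, compared with 47.1% and 1.88 for all gained H2A.Z regions. For gained H2A.Zac the values were 57.4% and 4.84, compared with 48.6% and 1.87, and for lost H2A.Zac 57.1% and 3.66, compared with 49.6% and 1.72. Unchanged HOX regions were also above their lists, at 4.75 CG per 100 bp for H2A.Z and 3.47 for H2A.Zac, compared with 2.85 and 2.16.

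Letters of transcription factor motifs were searched on both strands in the middle 300 bp of each region. Of the 84 HOX H2A.Zac regions, 13 (15.5%) held TGACAG, the MEIS letters, compared with 17.5% of all H2A.Zac regions. AGATAA, the GATA letters, were in 11 (13.1%, compared with 14.6%), CCACNAGG, part of the CTCF core, in 7 (8.33%, compared with 5.31%), CACGTG in 4 (4.76%, compared with 5.91%), TGATTTAT, a PBX-HOX site, in 2 (2.38%, compared with 0.926%) and TTCGCGC, E2F-like letters, in 1 (1.19%, compared with 0.897%). In the 46 H2A.Z regions, TGACAG was in 9 (19.6%, compared with 17.1%). These shares rest on few regions and are given as a description.

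Genes whose products work with HOX proteins or regulate the clusters were taken from gene lists. Of 9 cofactor genes (PBX, MEIS and PKNOX, which bind DNA with HOX proteins), 5 had gained H2A.Zac within 1 kb of a TSS (55.6%, 26.7 to 81.1%), against 41.4% of all protein-coding genes, and 4 had gained H2A.Z (44.4%, 18.9 to 73.3%), against 16.2%. Lost H2A.Zac lay there at 1 of the 9 (11.1%, 1.99 to 43.5%), against 22.3%, and lost H2A.Z at 0, against 9.31%. A listed H2A.Zac region of some class lay at 8 of the 9, against 69.1%, and a listed H2A.Z region at all 9, against 67.0%. Among them, PBX2 had ratios of 18.0 for H2A.Zac and 6.41 for H2A.Z, and MEIS2 had 11.9 and 5.65. PKNOX1 and PBX3 had gained H2A.Zac at 5.61 and 5.02. MEIS1, the partner of HOXA9 in leukemia, had H2A.Zac lost at 10.7 and H2A.Z gained at 7.04. In the gene plus 2 kb, H2A.Zac was gained at 7 of the 9 cofactor genes and lost at 4, against 51.8% and 37.7%.

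Among 9 MLL and Trithorax genes, which keep HOX genes active, 8 had gained (88.9%, 56.5 to 98.0%) and 2 had lost H2A.Zac at a TSS (22.2%, 6.32 to 54.7%), against 41.4% and 22.3% of all protein-coding genes. All 9 had a listed H2A.Zac region of some class there, against 69.1%. H2A.Z was gained there at 2 of the 9 (22.2%, 6.32 to 54.7%), against 16.2%. ASH1L, a histone methyltransferase, had the highest gained ratio (7.21, with H2A.Z gained at 7.49), and PSIP1, which tethers MLL complexes to chromatin, had 6.47 with H2A.Z gained at 4.08. KMT2A (5.37), DOT1L (5.19), WDR5 (4.74), ASH2L (4.66) and RBBP5 (4.17) had gained H2A.Zac. MEN1 had both directions of H2A.Zac, 4.84 gained and 8.61 lost, and KMT2B had it lost at 8.37.

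Among 12 Polycomb genes, which keep HOX genes silent, 10 had gained (83.3%, 55.2 to 95.3%) and 2 had lost H2A.Zac at a TSS (16.7%, 4.70 to 44.8%), against the same 41.4% and 22.3%. All 12 had a listed H2A.Zac region there, against 69.1%. Among them, EZH1, BMI1 and EED had gained ratios of 9.29, 9.20 and 9.18. Ratios were lower at PCGF2 (8.42), CBX8 (7.15), SUZ12 (6.67), RING1 (5.72), CBX2 (4.84) and EZH2 (4.75). H2A.Z was gained at EED (6.68), EZH1 (5.08) and CBX8 (3.30). CBX8 also had lost H2A.Zac at 6.02, and RNF2 lost both marks, at 3.57 for H2A.Zac and 3.62 for H2A.Z. CTCF had unchanged regions, and CDX1, CDX2, CDX4, EVX1 and EVX2 had none at a TSS. In the gene plus 2 kb, EVX2 had 1 gained H2A.Z region and 1 gained and 1 lost H2A.Zac region, beside unchanged ones. CDX2 had an unchanged H2A.Z region in that window, and CDX1, CDX4 and EVX1 had no region.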

How the data were processed

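K562 lines expressing WT or ΔTRRAP EP400 were profiled by H2A.Z and H2A.Zac ChIP-seq, with 2 biological replicates of each mark and of input per line. The authors compared the lines once per mark with the bdgdiff command of MACS2, and the score in the deposited lists is the log10 likelihood ratio, which reaches 3 or more for every changed region and stays below 3 otherwise. They kept regions lying by at least 25% in reproducible peaks. The submitters' processing notes name hg38, Bowtie2 2.4.5, MACS2 2.2.7.1, bedtools 2.30.0 and deepTools 3.5.1. The study describes its ChIP-seq data as merged from both replicates, without giving the step for this comparison, and the lists hold no value per replicate. Depth is unknown here.

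Genes, canonical transcripts and TSSs came from GENCODE release 44. A region belonged to a HOX gene when it overlapped the gene or 2 kb on either side. No chromosome name of the lists was missing from the hg38 sequence and 0 regions reached past a chromosome end. Of 39 HOX genes, 20 matched the RefSeq promoter table. Since classes are assigned along the pileup, a peak can be split into several regions, so regions are not peaks, and the score is not a fold change. Shares have Wilson 95% intervals, which cover counting error only. The overlap code was tested on simulated data against bedtools 2.31.1. Python 3.11.15, numpy 2.4.6, pandas 2.3.3, scipy 1.17.1 and matplotlib 3.10.9 were used.

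The members and gene lists were chosen with earlier results of these data known. Named were, per cluster and mark, up to 3 changed regions of each direction with the highest score, the other changed regions of HOX genes, the HOX genes without a region, and list members with a changed region within 1 kb of a TSS, while homeobox genes outside the clusters are given as counts. The 4 sequences printed were chosen after the values were seen. Some genes, 1 sequence and the values that need them are not reported here, and the counts include them. Alternatives were flanks of 0 and 5 kb, whole cluster spans, at least 25% of a region inside, scores of at least 5 and 10, merging within 1 kb, other overlaps, TSS windows and flank lengths, and leaving out each cluster. Gene expression, inputs and signal tracks were not analysed here, so the cell type was not checked against markers.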

Additional observations from a re-analysis of the deposited data

How the results depend on the processing

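No paired analysis was possible because the lists hold no value per replicate, and for the same reason no replicate could be left out. Of the recomputed values, 100 stayed within 1.5 times the main count or within the main interval, and 29 moved. The gained share of changed H2A.Zac regions at the HOX genes was 59.5% or higher under each alternative, but its main interval (50.8 to 77.3%) barely clears the genome-wide 50.4%. The interval took in that value after merging within 1 kb (46.3 to 76.8%), at ratios of at least 5 (48.4 to 77.3%) and 10 (45.4 to 88.3%), without HOXA (43.5 to 73.7%) and without HOXB (47.8 to 81.4%), and, by a small margin, without HOXC (50.3 to 79.8%). The genome-wide 50.4% covers all listed changed regions, unmerged and with the list cutoff of 3, so at ratios of 5 and 10 the comparison mixes cutoffs. Without the 2 kb flanks, H2A.Z regions were 2 lost and 4 gained, and genes with lost H2A.Z, gained H2A.Z and lost H2A.Zac were 3, 5 and 7. With a ratio of at least 5, H2A.Z regions were 4 lost and 2 gained, at 3 and 2 genes. With a ratio of at least 10, H2A.Z regions were 1 lost and 1 gained, at 1 gene each, and H2A.Zac regions 4 lost and 10 gained, at 4 and 11 genes. Without HOXB the gained share of H2A.Z was 85.7%, and in base pairs that of H2A.Zac was 77.7% (50.6% genome-wide). With an overlap of 50%, 2 lost and 2 gained H2A.Zac regions had H2A.Z of the same class. Windows of 2 kb around a TSS gave 5 genes with lost H2A.Z. The canonical TSS alone, an alternative chosen after seeing the data, gave 4 genes with lost H2A.Zac. Flanks of 250 kb gave gained shares of 85.7% for H2A.Z and 90.0% for H2A.Zac beside HOXA, 0% for H2A.Z (0 of 1 changed region) and 60.0% for H2A.Zac beside HOXC, and 75.0% for H2A.Z beside HOXD, and flanks of 2.5 Mb gave 51.5% for H2A.Zac beside HOXB. The fewer regions in narrow flanks and under high ratios widen the intervals, and depth, which is unknown here, limits which regions could be listed.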

Other observations

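The highest H2A.Zac ratio inside any of the 4 spans lay outside the windows of the HOX genes. It was 32.3, in a gained region of 1059 bp within HOTAIR (chr12:53965263-53966321), the long non-coding RNA between HOXC12 and HOXC11, and an H2A.Z region of 1670 bp nearby was gained at 6.01. Between HOXC13 and HOXC12, H2A.Zac was gained over 1765 bp at 14.4, with H2A.Z gained at 9.03 and 4.65. In the long interval between HOXB7 and HOXB13, which holds LINC02086 and LINC03057, 1 H2A.Zac region was gained at 6.58 and 1 was lost at 3.72, and the other 10 regions were unchanged.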
